A study of Mus musculus with 16 samples.

Results

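The epidermis was examined here for 10 genes of the cytokine system around thymic stromal lymphopoietin (TSLP): Tslp itself, its receptor chain Crlf2, the receptor chains Il4ra, Il13ra1, Il13ra2, Il31ra, Il9r, Il7r and Il2rg, and the cytokine gene Il9. They were chosen by name, with earlier results of these data known, and all 10 were found among the 27179 gene identifiers of the count table. Bulk RNA sequencing had been done on epidermal cells of aged C57BL/6J mice, 73 weeks old when treatment began, which were injected intraperitoneally 3 times per week for 12 weeks. The 4 control mice received control IgG and the 4 treated mice received neutralizing antibodies against IL-17A and IL-17F. No genetic modification was described for either group. The comparison asks whether the levels of these genes differed in aged epidermis when IL-17A and IL-17F, cytokines of dermal and epidermal lymphocytes that act on keratinocytes, were blocked.

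TSLP is released by keratinocytes when the skin barrier is disturbed, and acts on dendritic cells and lymphocytes through a receptor made of CRLF2 and IL-7Rα. IL-4 binds IL-4Rα, which pairs with the common γ chain (encoded by Il2rg) on lymphocytes or with IL-13Rα1 on epithelial cells, and the pair with IL-13Rα1 is also a receptor for IL-13. These receptors signal through JAK kinases to STAT6, while the receptors for TSLP, IL-7 and IL-9 act mainly through STAT5. IL-31, a cytokine of itch, uses IL-31RA together with the oncostatin M receptor chain (Osmr), and IL-13Rα2 is best known as a decoy that takes up IL-13.

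Total counts per mouse ran from 42816157 to 53721153, with 19427 to 19727 genes detected. The samples carried strong epithelial signal: the summed level of 6 basal keratinocyte markers was 15840 to 19760 CPM in control mice and 16490 to 18330 CPM in treated mice. CPM divides each count by the library total of the mouse in units of 1e6 counts, after that total was scaled by the trimmed mean of M values (TMM). Values are given as mean ± SD over 4 mice per group, and each log2 fold change compares treated with control mice and carries its standard error (SE). In edgeR's quasi-likelihood test over 16335 genes, 0 of the 9 members that passed the filter on low counts had a Benjamini-Hochberg adjusted p below 0.1, as did 0 genes (0%) of the whole table. At an unadjusted p below 0.05 the count was 1 of 9 members, Il31ra, beside 658 genes (4.03%) of the table, of which 401 (2.45% of all genes tested) were higher in treated mice, as Il31ra was, and 257 (1.57%) lower. DESeq2 called 11 of the 13370 genes to which it gave an adjusted p (0.0823%), and limma-voom called 0 genes (0%, with 1099 genes, 6.73%, at an unadjusted p below 0.05). Neither tool called a member, but DESeq2 gave no adjusted p to Tslp, Il9r and Il9, which it therefore could not call. No member was without overlap between the groups, against 395 genes (2.42%) of the table.

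**Figure D1:**
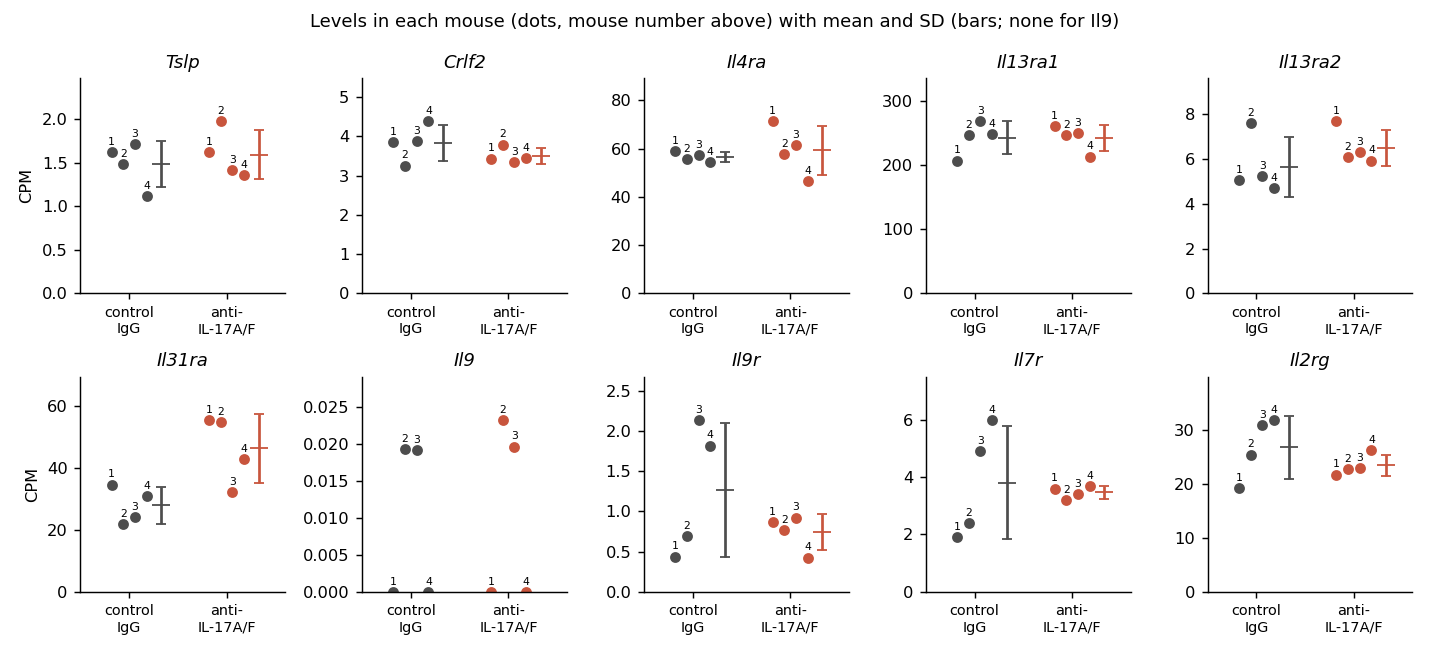
Level of each of the 10 genes in CPM (y axes, each from 0) in the 4 control IgG mice (grey) and 4 anti-IL-17A/F mice (red), with 1 dot per mouse and bars for mean and SD. Il31ra lay between 21.7 and 34.6 CPM in control mice and between 32.1 and 55.5 CPM in treated mice, and the groups overlapped for every gene shown.

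Il31ra, on chromosome 13 (GRCm38, RefSeq gene span 112521931 to 112580732, minus strand), had the smallest p of the members. The control mice 1 to 4 had 34.6, 21.7, 24.1 and 31.0 CPM. The treated mice 1 to 4 had 55.5, 54.8, 32.1 and 42.9 CPM. Of the 4 treated mice, 3 were above every control mouse, and treated mouse 3 lay below control mouse 1. The means were 27.9 ± 5.97 and 46.4 ± 11.1 CPM (SD, n = 4 per group), a log2 fold change of 0.73 (SE 0.20), or 1.66-fold with a 95% interval of 1.22 to 2.27. The unadjusted p in edgeR's quasi-likelihood test was 0.00489, rank 45 of 16335 genes, and the Benjamini-Hochberg adjusted p was 0.984. A log2 fold change of this size or further from 0 was seen in 223 genes (1.37%) of the table. DESeq2 gave an adjusted p of 0.146 and limma-voom one of 0.699 for Il31ra. Each mouse had 2 columns of counts, labelled batch 1 and batch 2. The log2 fold change of Il31ra was 0.75 with batch 1 alone and 0.71 with batch 2 alone. Both batches hold the same mice, and their columns differed by little more than sampling noise, so this is no independent repeat.

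IL-31RA needs OSMR for signaling, and the level of Osmr was 80.8 ± 10.4 CPM in control mice and 88.1 ± 17.7 CPM in treated mice (log2 fold change 0.13, SE 0.15, n = 4 per group). The ratio of Il31ra to Osmr, each as CPM per kilobase of exon, was 0.993, 0.568, 0.541 and 0.918 in control mice 1 to 4. It was 1.16, 1.22, 0.750 and 1.47 in treated mice 1 to 4. Again treated mouse 3 was the only treated mouse within the range of the control mice. With the length of the longest annotated transcript, the ratio was 0.378 to 0.694 in control mice and 0.524 to 1.025 in treated mice. Treated mouse 3 was again the only treated mouse within the control range. Whether the ratio lay above or below 1 thus depended on the length used. The ligand gene Il31 had 0 counts in all 8 mice, which allows up to 3 counts per mouse, or 0.0558 to 0.0701 CPM depending on the library. Markers of endothelial cells were higher in treated mice for 8 of 8 genes (median log2 fold change 0.45), with a summed level of 5.26 to 7.53 CPM in control mice and 5.004 to 13.7 CPM in treated mice. None of these 8 endothelial markers was at 0 in all mice. None had an unadjusted p below 0.05 or an adjusted p below 0.1 in edgeR's test. Fibroblast markers were higher in treated mice for 3 genes and lower for 5. Basal keratinocyte markers were higher for 1 and lower for 5, and suprabasal ones higher for 3 and lower for 3. The part of any of these cell types in the Il31ra values was not tested.

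The 300 bases around a RefSeq transcript start of Il31ra, from 250 before to 50 after it, are shown because this gene had the smallest p of the members, and those of Crlf2 and Il9 because the study looked at binding of the NF-κB subunit p65 at these genes. They are RefSeq sequences of GRCm38.p6, 5′ to 3′ on the minus strand, at chr13:112580613-112580912 for Il31ra, chr5:109558944-109559243 for Crlf2 and chr13:56482208-56482507 for Il9. The start used is at 112580662 for Il31ra, 70 bases inside the gene span given above, and at 109558993 for Crlf2, 135 bases inside its RefSeq span. It is at the outer end of the span for Il9. The GENCODE annotation used for exon lengths places the 5′ end of Il31ra at 112594360, upstream of and outside this window. Capitals mark matches, on either strand, to 3 patterns: GGG and CC with any 5 letters between them for NF-κB (κB), TTC and GAA with any 3 letters between them for STAT factors, and TTC and GAA with any 4 letters between them for STAT6.
Il31ra promoter: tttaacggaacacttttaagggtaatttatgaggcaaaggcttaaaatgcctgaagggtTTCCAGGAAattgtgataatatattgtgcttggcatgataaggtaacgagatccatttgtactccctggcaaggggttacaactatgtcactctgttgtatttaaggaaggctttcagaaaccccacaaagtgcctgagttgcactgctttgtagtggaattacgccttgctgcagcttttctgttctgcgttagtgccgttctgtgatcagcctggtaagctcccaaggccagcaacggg
Crlf2 promoter: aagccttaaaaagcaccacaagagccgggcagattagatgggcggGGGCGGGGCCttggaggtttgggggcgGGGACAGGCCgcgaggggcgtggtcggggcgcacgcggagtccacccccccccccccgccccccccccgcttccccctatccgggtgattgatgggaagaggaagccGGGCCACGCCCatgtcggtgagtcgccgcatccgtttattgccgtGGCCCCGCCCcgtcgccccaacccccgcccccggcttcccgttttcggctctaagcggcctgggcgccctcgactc
Il9 promoter: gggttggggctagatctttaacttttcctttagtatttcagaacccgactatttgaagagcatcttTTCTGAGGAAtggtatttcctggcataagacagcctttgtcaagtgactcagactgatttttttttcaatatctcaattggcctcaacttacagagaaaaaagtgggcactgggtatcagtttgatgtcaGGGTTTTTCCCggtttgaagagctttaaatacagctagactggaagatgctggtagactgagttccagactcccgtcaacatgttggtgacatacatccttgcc
The Il31ra window held 1 STAT match, at -191 relative to the transcript start used. The Crlf2 window held 5 κB matches in 4 separate stretches, since 2 of them overlapped. The Il9 window held 2 overlapping κB matches in 1 stretch and 1 STAT6 match. Among the windows of the other members, Il13ra1 held 3 κB matches, Il4ra 1 κB match and Il7r 1 STAT match, and Il13ra2, Il9r and Il2rg held none. Of 32851 windows of the same length over all genes, 50.8% held the κB pattern, 8.3% the STAT pattern and 6.95% the STAT6 pattern. A match is a run of letters and not a measured binding site. The study reports p65 at regulatory areas of Il9 and Crlf2 in aged mice given IgG. It describes this inflammatory trend as reversed after the blockade, but only in part, since some inflammatory genes stayed bound. The RNA values given here do not measure binding. A window was used for 9 of the 10 members, Tslp being the exception. In 4 of these 9 (Il31ra, Crlf2, Il7r and Il9r) the start used lay inside the RefSeq gene span, by 5004 bases for Il9r.

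Tslp (chromosome 18, 32815383 to 32819799, plus strand), the ligand of the system, was measured at 57 to 90 counts per mouse. Its level in control mice 1 to 4 was 1.62, 1.48, 1.72 and 1.11 CPM. In treated mice 1 to 4 it was 1.62, 1.98, 1.41 and 1.36 CPM. The lowest value belonged to a control mouse and the highest to a treated mouse, and the other 6 mice were interleaved. The means were 1.49 ± 0.266 and 1.59 ± 0.281 CPM (SD, n = 4 per group), with a log2 fold change of 0.10 (SE 0.19, 95% interval -0.33 to 0.52, edgeR adjusted p 0.984). Without control mouse 4 the value was -0.02, without treated mouse 2 it was also -0.02, and within batch 2 it was again -0.02. A change of Tslp by more than 1.44-fold upward lay outside the 95% interval.

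Crlf2 (chromosome 5, 109554709 to 109559128, minus strand) encodes the chain specific to TSLP. It had 3.84, 3.26, 3.88 and 4.38 CPM in control mice 1 to 4. It had 3.43, 3.79, 3.34 and 3.45 CPM in treated mice 1 to 4. The treated mice all lay within the range of the control mice. The log2 fold change was -0.13 (SE 0.12, 95% interval -0.40 to 0.14), with an unadjusted p of 0.291 and an adjusted p of 0.984 in edgeR's test over all genes. The sign of Crlf2 was the same with each mouse left out in turn (-0.20 to -0.06).

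Il4ra (chromosome 7, 125552271 to 125579474, plus strand) encodes the chain that binds IL-4 and is shared with the IL-13 receptor. In control mice 1 to 4 it had 58.8, 55.6, 57.1 and 54.5 CPM. In treated mice 1 to 4 it had 71.2, 57.7, 61.5 and 46.6 CPM. The treated mice held both the highest and the lowest value, with an SD of 10.2 CPM beside 1.87 CPM in control mice; this difference in spread was not tested. The log2 fold change of Il4ra was 0.07 (SE 0.11, 95% interval -0.18 to 0.32, edgeR adjusted p 0.984), and it was -0.03 without treated mouse 1. Of the exon sequence of Il4ra, 9.51% is overlapped on the opposite strand by Gm44876, and whether reads were counted by strand is not stated in the sources used, so a share of its counts could belong to that gene.

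Il13ra1 (X chromosome, 36112108 to 36171262, plus strand), the chain that joins IL-4Rα on epithelial cells, had the highest counts of the members. Control mice 1 to 4 had 207, 247, 268 and 249 CPM. Treated mice 1 to 4 had 261, 247, 250 and 213 CPM. The groups covered the same range, and the means of 243 ± 25.8 and 242 ± 20.4 CPM gave a log2 fold change of -0.0010 (SE 0.09, n = 4 per group). Its 95% interval of -0.20 to 0.20, from edgeR's fit over all genes (adjusted p 0.999), was the narrowest of the 9 tested members. The sign, at a value so near 0, turned with several settings, and the range with each mouse left out was -0.07 to 0.06.

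The decoy chain gene Il13ra2 (X chromosome, 147383478 to 147429192, minus strand) was far lower. It had 5.05, 7.61, 5.22 and 4.71 CPM in control mice 1 to 4. It had 7.67, 6.09, 6.32 and 5.92 CPM in treated mice 1 to 4. Control mouse 2 was close to the highest treated mouse, and the other 3 control mice were below all treated mice. The log2 fold change was 0.20 (SE 0.17, 95% interval -0.17 to 0.58), with an unadjusted p of 0.254 and an adjusted p of 0.984 in edgeR's test. With each mouse left out in turn the value of Il13ra2 lay between 0.12 and 0.38, the latter without control mouse 2.

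**Figure D2:**
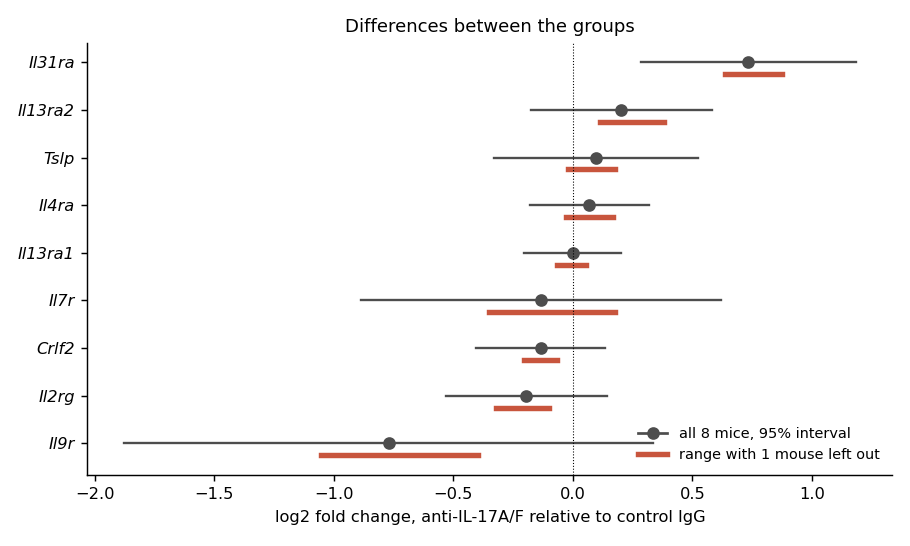
Log2 fold change of the 9 tested genes (x axis, positive where treated mice were higher), with the estimate from all 8 mice and its 95% interval in grey and the range when 1 mouse is left out in red. Only the interval of Il31ra (0.29 to 1.18) lay on one side of 0, and that interval is not adjusted for the number of genes tested.

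Il9, the cytokine gene of the set (chromosome 13, 56479277 to 56482257, minus strand), was barely detected. It had 0, 1, 1 and 0 counts in control mice 1 to 4 and 0, 1, 1 and 0 counts in treated mice 1 to 4. The ratio of treated to control counts per total was 1.06 with an exact 95% interval of 0.0766 to 14.6 that covers counting error only, so a difference between the groups could not be detected at this depth (exact two-sided permutation test over the 8 mice, p = 0.657). Each mouse at 0 counts allows up to 3 counts. Markers of mast cells and basophils, cell types that respond to IL-9, were also scarce: 0 of 6 genes passed the filter, their summed level was 0.176 to 0.917 CPM in control mice and 0.0785 to 0.558 CPM in treated mice, and Ms4a2, a chain of the IgE receptor, had 0 counts in all mice.

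Il9r (chromosome 11, 32187544 to 32205283, minus strand), the IL-9 binding chain, was measured at 22 to 112 counts per mouse. Its level was 0.436, 0.694, 2.14 and 1.82 CPM in control mice 1 to 4. It was 0.867, 0.767, 0.922 and 0.426 CPM in treated mice 1 to 4. Control mice 3 and 4 were above every treated mouse, and control mice 1 and 2 lay within the range of the treated mice. The log2 fold change was -0.77 (SE 0.49, 95% interval -1.88 to 0.34), with an unadjusted p of 0.150 and an adjusted p of 0.984 in edgeR's test. Without control mouse 3 it was -0.40, and without control mouse 1 it was -1.05.

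Il7r (chromosome 15, 9506159 to 9529941, minus strand) encodes IL-7Rα, the chain shared by the receptors for IL-7 and TSLP and carried by most resting T cells and innate lymphoid cells. Control mice 1 to 4 had 1.90, 2.39, 4.91 and 6.00 CPM. Treated mice 1 to 4 had 3.60, 3.19, 3.40 and 3.68 CPM. The treated mice lay close together between the lower and the higher pair of control mice. The log2 fold change was -0.13 (SE 0.33, 95% interval -0.89 to 0.62, edgeR adjusted p 0.985). Leaving out control mouse 3 gave 0.01 and leaving out control mouse 4 gave 0.18, so that its sign depended on these mice.

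Il2rg (X chromosome, 101264385 to 101268255, minus strand), the common γ chain of lymphocytes, had 19.1, 25.4, 30.8 and 31.9 CPM in control mice 1 to 4. In treated mice 1 to 4 it had 21.7, 22.8, 23.0 and 26.3 CPM. Control mice 3 and 4 were again the highest of the 8 mice. The log2 fold change was -0.19 (SE 0.15, 95% interval -0.53 to 0.14, edgeR adjusted p 0.984). Of the exon sequence of Il2rg, 30.5% is overlapped on the same strand by Gm20489, and per the study a read that overlapped several genes was counted for each.

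The same pair of mice was highest in the markers of some immune cells and not of others. The summed level of 10 pan T cell markers was 110, 134, 171 and 172 CPM in control mice 1 to 4 and 109, 125, 114 and 151 CPM in treated mice 1 to 4. The fitted values of these markers were lower in treated mice for 10 of 10 genes (median log2 fold change -0.27, 0 with an adjusted p below 0.1). The 8 markers of Langerhans and dendritic cells summed to 157, 199, 497 and 428 CPM in control mice and to 289, 227, 282 and 185 CPM in treated mice. Those of macrophages and monocytes summed to 13.5, 13.6, 32.95 and 29.1 CPM in control mice and to 14.0 to 20.1 CPM in treated mice. The 9 markers of γδ T cells did not follow this order, with 149, 129, 151 and 177 CPM in control mice and 139, 144, 149.8 and 179.9 CPM in treated mice, nor did the scarce mast cell and basophil markers, which had their lowest control sum (0.176 CPM) in control mouse 4. No marker of the pan T cell, Langerhans and dendritic cell or macrophage and monocyte lists was at 0 in all mice. In bulk samples, fewer cells of a type and less RNA per cell cannot be told apart, and the part of cell content in the values of Il9r, Il7r and Il2rg was not tested.

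**Figure D3:**
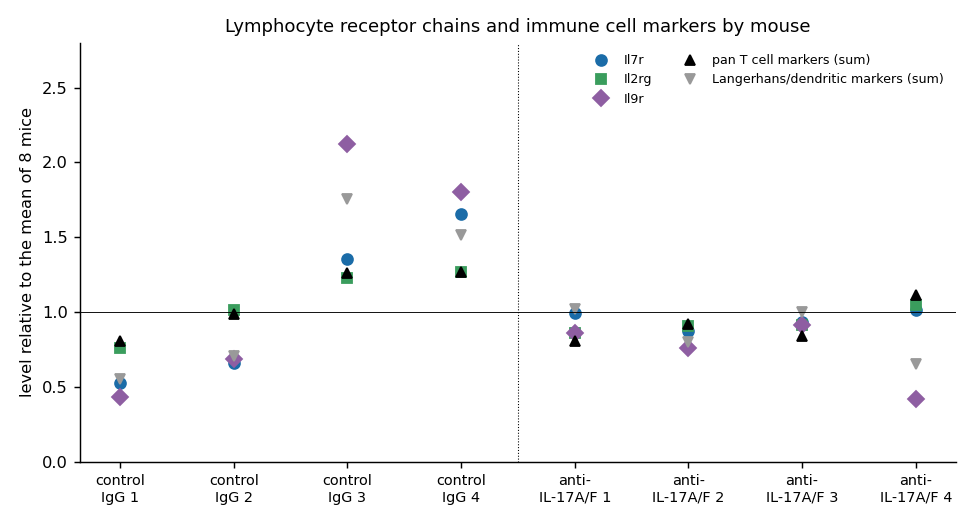
Level of Il7r, Il2rg and Il9r and of the summed pan T cell and Langerhans or dendritic cell markers in each mouse (x axis), relative to the mean of the 8 mice (y axis). Control mice 3 and 4 were above the mean for all 5 series, with Il9r at 2.12 and 1.80 times its mean, and control mouse 1 was below it for all 5.

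Compared per kilobase of exon, the order of the members was led by Il13ra1, with 55.7 to 72.2 CPM per kilobase over the 8 mice and no overlap with any other member. Il2rg (8.02 to 13.3), Il4ra (7.77 to 11.9) and Il31ra (3.83 to 9.79 CPM per kilobase) followed, and neighbors in this order overlapped. Il13ra2 (2.07 to 3.36) and Crlf2 (2.18 to 2.93 CPM per kilobase) overlapped with each other but not with Il31ra. Tslp (0.837 to 1.48) and Il7r (0.408 to 1.29 CPM per kilobase) overlapped too, and Il9r (0.0861 to 0.433) overlapped with Il7r in its highest control mouse. Il9 was lowest, at no more than 0.0434 CPM per kilobase. With the length of the longest annotated transcript in place of all exons, the mean over the 8 mice was 10.1 CPM per kilobase for Il31ra and 15.04 for Il2rg. The lengths came from another annotation than the one used for counting, so levels per kilobase are approximate.

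**Figure D4:**
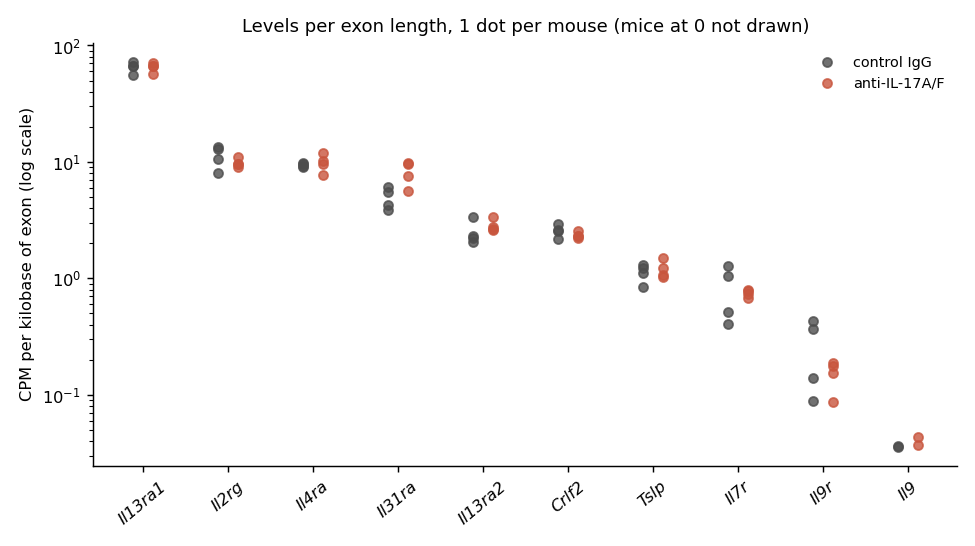
Level of the 10 genes in CPM per kilobase of exon (y axis, log scale), with 1 dot per mouse in control IgG (grey) and anti-IL-17A/F (red). Genes are ordered by median level over all mice. Il13ra1 (55.7 to 72.2) stood above all others, and Il9 is drawn only for the 4 mice with a count.

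Among chains that pair in a receptor, the ratio of Il4ra to Il13ra1 per exon length varied little, at 0.132 to 0.176 in control mice and 0.135 to 0.169 in treated mice. The ratio of Il4ra to Il2rg was 0.680 to 1.22 in control mice and 0.706 to 1.31 in treated mice. With the longest transcript as length it was 0.543 to 0.976 in control mice and 0.564 to 1.044 in treated mice. For the TSLP receptor, the ratio of Crlf2 to Il7r was 6.30, 4.25, 2.46 and 2.28 in control mice 1 to 4 and 2.92 to 3.71 in treated mice. The chains that IL-9 and IL-7 receptors need beside the common γ chain were scarcer than it, with 0.0078 to 0.0335 for Il9r to Il2rg and 0.0482 to 0.0965 for Il7r to Il2rg over the 8 mice. These ratios are of RNA in a mixed tissue and do not say which cells held the chains.

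The other genes of the pathway were taken from 7 lists, in which 43 of 49 genes passed the filter. None of the 43 had an adjusted p below 0.1 in edgeR's test, 2 had an unadjusted p below 0.05, and the fitted log2 fold change was above 0 for 7 and below 0 for 36, with a median of -0.07 beside 8.734e-05 over all genes tested (8176 genes, 50.1%, above 0). The number above 0 was 4 without control mouse 1, 12 without control mouse 2 and 13 without control mouse 3 or without treated mouse 4. With scaling by library totals alone it was 11. The lists were chosen with earlier results of these data known, so these numbers are a description. Several list genes are lymphocyte genes, and the pan T cell markers were below 0 for 10 of 10 genes. The part of cell content in the pathway values was not tested.

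Of the 7 ligand genes, 4 were tested and all had values below 0 (median -0.27). Il7, a survival factor for T cells made by keratinocytes, had 5.80 ± 0.468 CPM in control mice and 4.79 ± 0.469 CPM in treated mice, with a log2 fold change of -0.28 (SE 0.11, n = 4 per group, edgeR unadjusted p 0.0332, adjusted p 0.984). Its ranges of 5.11 to 6.08 and 4.28 to 5.42 CPM overlapped. Il2, a T cell growth factor, had -0.58 (SE 0.40) and Il15, which sustains epidermal T cells, -0.11 (SE 0.13) on the log2 scale. The type 2 cytokine genes were rare: Il13 had 226 counts in the control mice together and 183 in the treated mice, and Il4 had 1 and 3 counts.

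Of the 5 partner chains, 1 had a value above 0 (Osmr) and 4 had values below it (median -0.31). Il15ra, which presents IL-15 to lymphocytes, had 39.0 ± 2.76 CPM in control mice and 35.3 ± 1.79 CPM in treated mice, with a log2 fold change of -0.14 (SE 0.06, n = 4 per group, edgeR unadjusted p 0.0490, adjusted p 0.984). Its groups did not overlap, at 36.8 to 43.0 and 32.6 to 36.6 CPM; 395 genes (2.42%) of the table were without overlap. Il2rb, the β chain shared by the IL-2 and IL-15 receptors, had -0.38 (SE 0.20) and Il21r, the IL-21 receptor, -0.54 (SE 0.41) on the log2 scale.

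Downstream, 1 of 9 JAK and STAT genes had a value above 0 and 8 below it, with a small median of -0.06. Stat3, a factor used by IL-31 signaling, had 277 ± 7.97 CPM in control mice and 263 ± 6.09 CPM in treated mice (n = 4 per group). Its log2 fold change was -0.08 (SE 0.04, edgeR unadjusted p 0.113, adjusted p 0.984). The groups of Stat3 did not overlap, as was the case for 395 genes (2.42%) of the table. Jak3, the kinase bound to the common γ chain, had a log2 fold change of -0.17 (SE 0.09) and Tyk2 one of -0.08 (SE 0.06). Genes that STAT factors induce as feedback had 2 values above 0 and 4 below it (median -0.03). The spread between mice was wide for Socs2 and Socs3, both inhibitors of cytokine signaling, with log2 fold changes of 0.66 (SE 0.51) and -0.42 (SE 0.34). The kinase gene Pim1 had -0.16 (SE 0.08) on the log2 scale.

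The alarmin Il33, released by damaged keratinocytes, had 97.5 ± 16.9 CPM in control mice and 82.6 ± 7.36 CPM in treated mice (log2 fold change -0.24, SE 0.12, n = 4 per group), and Il17rb, a chain of the IL-25 receptor, had a log2 fold change of -0.15 (SE 0.09). Il25 (13 and 19 counts in the control and the treated mice) and Il1rl1, the IL-33 receptor (30 and 16 counts), were below the filter. Genes reported in mouse skin or keratinocytes to act on Tslp, among them those of the vitamin D and retinoid X receptors and of Notch signaling, had 3 values above 0 and 8 below it of 11 (median -0.03). Values were 0.13 (SE 0.08) for Rbpj, the DNA-binding partner of Notch, -0.07 (SE 0.05) for Rxra and 0.13 (SE 0.11) for Vdr on the log2 scale. Of 7 genes on the list for type 2 lymphocytes, 6 were tested and all had values below 0 (median -0.14). Among them were the chemokine receptor gene Ccr8 at -0.75 (SE 0.39), Ptgdr2 at -0.19 (SE 0.24) and Rora at -0.12 (SE 0.09). Gata3, also on this list, had 534 ± 63.9 CPM in control mice and 516.5 ± 54.1 CPM in treated mice (log2 fold change -0.05, SE 0.10). The summed pan T cell markers reached no more than 172 CPM in control mice and 151 CPM in treated mice. Which cells held the RNA of the listed genes was not tested.

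The genes whose level followed that of a member most closely over the 8 mice are given as a description, by Pearson's r of log2 CPM among 13456 genes averaging at least 1 CPM. With r picked as the highest of so many genes over 8 mice that share their libraries, high values arise in any such search. For Crlf2 they were Gpr19 (0.976), Sprr1a (0.963), which encodes a cornified envelope protein, and Cst6 (0.948), which encodes a protease inhibitor of the cornified layer. For Il4ra they were Suds3 (0.969), Itpka (0.965) and Sdc4 (0.964), and for Il13ra1 they included Myo1h (0.992) and Pan3 (0.986). For Il7r they were Ankrd44 (0.978), Btg1 (0.972) and Serpinb1a (0.969), and for Tslp, at its low counts, Ado (0.949), Zfp2 (0.907) and Zfp58 (0.901). Without the 2 mice farthest from the median of the member, r fell to 0.600 for Itpka, 0.743 for Sdc4 and 0.609 for Zfp58, so that these likenesses rested on those mice, and was 0.773 (Ado) to 0.977 (Pan3) for the other genes named.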

How the data were processed

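RNA was sequenced from epidermal cells of 8 mice, 4 per group. Per the study, the epidermis was separated from the dermis with dispase, stranded poly(A) libraries were read single-end, reads were aligned to mm10 with STAR 2.5.2b, and the authors deposited raw featureCounts counts per Entrez gene with no normalization. Reads overlapping several genes were counted for each, reads mapping to several places were left out and duplicates were kept. The 16 columns are 2 per mouse, labelled batch 1 and batch 2 with the same library name and index. They are read here as 2 sequencing runs of the same library, which the labels do not state. The 2 columns of a mouse differed by little more than sampling noise and were summed. Chi-square per gene was 0.998 to 1.05 between them, against 11.5 to 39.2 between mice of a group.

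Of 27179 identifiers, 25275 (93.0%, holding 98.0% of counts) had a symbol. Treated and control mice were compared in edgeR 4.0.16 under R 4.3.3 (two-sided quasi-likelihood test, TMM scaling) after filterByExpr (minimum count 10, minimum total 15), which kept 16335 of 21658 genes, with Benjamini-Hochberg adjustment over all of them. Il9 failed the filter and was given as counts. Intervals of fold changes use the moderated degrees of freedom of edgeR; the interval of Il9 and limits from 3 counts cover counting error only, since reads had no molecular identifiers. Alternatives were DESeq2 1.42.0, limma-voom with sample weights (limma 3.58.1), other scaling, no filter, each mouse left out, a replicate block and each batch alone. The scripts were tested on simulated data. Exon lengths came from GENCODE vM21, gene spans and promoters from RefSeq. Per the study, reads were counted with the built-in mm10 annotation of featureCounts, so the exons counted can differ from those measured for length.

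Whether the experimental batch that the study used as covariate is this batch label is not stated in the sources used here. Every mouse was in both batches and its columns were summed, so no batch was fitted. The members and lists were chosen with earlier results of these data known. The text names all members, the list genes of smallest p (up to 3 per list), paired chains, the 3 genes most like Tslp, Crlf2, Il4ra, Il13ra1 and Il7r (1 of them is not reported here), and marker genes beside a member's result; Osmr, Il13, Il4, Il31, Il25 and Il1rl1 are named as partners or low-count genes after their values were seen. Gata3 is named for its high level, also after its values were seen. Whether the mice were housed or processed independently is not given, so p-values measure the spread between these mice.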

Additional observations from a re-analysis of the deposited data

How the results depend on the processing

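The number of genes called over the whole table was 0 in edgeR's test and 11 with DESeq2. Il31ra kept its direction under all 16 alternatives, with a log2 fold change of 0.63 to 0.88 when 1 mouse was left out and an adjusted p of 0.146 to 1.00 over all settings. Crlf2, Il13ra2, Il9r and Il2rg kept their directions too. All these alternatives draw on the same mice and are no independent repeats. Tslp, at 0.10 with all mice, was -0.0183 within batch 2 (range with a mouse left out -0.0218 to 0.175), and Il4ra ranged from -0.0303 to 0.169 with a mouse left out. Il13ra1, at -0.0010, was 0.0258 with library totals, 0.0264 with limma-voom, 0.0011 with a replicate block and 0.0148 within batch 1, and ranged from -0.0673 to 0.0561 with a mouse left out. Il7r was 0.0044 with the replicate block and ranged from -0.35 to 0.18. The pathway genes above 0 numbered 11 with library totals and 4 to 13 with a mouse left out. The Il9 ratio ranged from 0.675 to 1.58. With the longest transcript, the level per kilobase was 10.1 for Il31ra and 15.04 for Il2rg. The cause of these shifts was not tested, beyond the fewer samples of each fit without a mouse.

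Same-numbered mice deviated from their group means with correlations of -0.265, 0.25, 0.189 and -0.135. For mice of different numbers these ran from -0.312 (control 2 with treated 4) to 0.302 (control 4 with treated 1). The labels do not say whether mice of the same number were paired, and so few values cannot decide it. The block changed no other direction of a member and left the number of genes called at 0. Depth limits Il9, Il4, Il31 and Il21, which had 0 to 3 counts per group or mouse, and to a lesser degree Tslp and Il9r.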

Other observations

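Genes most like 3 other members were looked up after the values had been seen, by the same measure (Pearson's r of log2 CPM over 8 mice, 13456 genes), and are descriptions. For Il2rg they were Rinl (0.993), Lcp2 (0.990) and Runx3 (0.986), of which Lcp2 encodes an adaptor of T cell receptor signaling and Runx3 a transcription factor of cytotoxic lymphocytes and Langerhans cells. For Il9r they were H2-Ab1 (0.983), an MHC class II chain of antigen-presenting cells, P2rx2 (0.983) and Cyth4 (0.981). For Il31ra they were Rbbp9 (0.990), Fzd7 (0.974), a Wnt receptor, and Fgfr1 (0.968), a fibroblast growth factor receptor. The levels of these genes share the library, depth and group of the mice with the member.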
